A study of Homo sapiens with 15 samples.

Results

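The chromatin of 9 interferon response genes, ISG15, IFIT1, IFIT2, IFIT3, MX1, OAS1, IRF1, IRF7 and IFI44L, was compared across MDA-MB-231 cells (Par) and their metastatic sub-populations LM2 and BrM2. MDA-MB-231 is an established human breast cancer line of the claudin-low type. LM2 colonises the lung of mice and BrM2 the brain, and both were selected in vivo from the parental line. ChIP-seq of H3K4me3, a histone mark of active promoters, and of H3K27ac, found at active promoters and also at enhancers, was available with 2 replicates per line and mark, which makes 12 libraries. All lines were grown as monolayers in medium with 10% serum for 3 days, and neither the labels nor the methods name an interferon treatment. The sub-populations are in vivo selected lines grown in culture, so the comparison is between cultured lines and not between metastases.

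Members were consensus peaks assigned to these genes with the hg19 annotation of GENCODE release 44. An H3K4me3 peak was a member when it lay within 2 kb of the start of the gene record, and an H3K27ac peak when it lay within 100 kb and no other protein-coding gene start was nearer. This gave 8 of 22572 H3K4me3 peaks, 1 for each gene except IRF1, and 29 of 62195 H3K27ac peaks, for each gene except ISG15. The gene records of ISG15, IFIT2 and IRF1 begin 12359, 18352 and 17946 bp upstream of the canonical (MANE Select) start, so the same rules were also applied to every protein-coding transcript start. With transcript starts, 14 H3K4me3 peaks and 24 H3K27ac peaks were members, and all 9 genes had a peak of each mark. All 14 H3K4me3 peaks are described, each by its distance from the canonical start. The 8 peaks of the gene-record rule are IFIT1, IFIT3, IRF7, IFI44L and OAS1 at or next to the canonical start, and ISG15, IFIT2 and MX1 upstream of it.

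Interferons bind receptors that signal through JAK kinases and STAT factors to the nucleus. There a complex that contains IRF9 binds the interferon-stimulated response element (ISRE). The gamma-activated site (GAS) is a second element of such promoters. IRF1 and IRF7 are transcription factors of this response, and the other 7 members are target genes whose products act against viruses. IFIT1, IFIT2 and IFIT3 lie near each other on chromosome 10 and encode tetratricopeptide-repeat proteins that act against foreign RNA. ISG15 is a ubiquitin-like modifier, MX1 a dynamin-like GTPase, and OAS1 an enzyme that makes the activator of RNase L. Breast cancer cells are known to carry interferon-stimulated genes at raised levels in some tumours.

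The 200 bases upstream of the canonical starts differed among the members in their matches to the ISRE and GAS letters searched. The ISRE core was searched as GAAANNGAAA and the GAS as TTCNNNGAA, on both strands of hg19. An ISRE match was present upstream of 5 members, ISG15, IFIT1, IFIT2, IFIT3 and IFI44L, with 2 matches each, compared with 2.18% of 18922 such windows of protein-coding genes. A GAS match was present upstream of IRF1, IRF7 and OAS1, with 1 each, compared with 4.24% of all windows. The MX1 window held a match to neither. The ISRE letters required exactly 2 bases between the GAAA units. The OAS1 and MX1 windows hold GAAA units 1 base apart, on 1 strand or the other, and these were not counted. The share of all windows with that spacing was not searched. Of the 5 windows with an ISRE match, those of the 3 IFIT genes and ISG15 are shown, to let the arrangement of the matches be seen. In each, written 5′ to 3′ on the plus strand of chromosome 10, or of chromosome 1 for ISG15, capitals mark the ISRE matches.
IFIT2, canonical start, chr10:91061603-91061802: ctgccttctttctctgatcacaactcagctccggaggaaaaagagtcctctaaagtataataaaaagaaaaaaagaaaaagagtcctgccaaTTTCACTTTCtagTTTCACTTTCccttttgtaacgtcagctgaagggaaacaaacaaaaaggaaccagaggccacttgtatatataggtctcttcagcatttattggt
IFIT3, canonical start, chr10:91087554-91087753: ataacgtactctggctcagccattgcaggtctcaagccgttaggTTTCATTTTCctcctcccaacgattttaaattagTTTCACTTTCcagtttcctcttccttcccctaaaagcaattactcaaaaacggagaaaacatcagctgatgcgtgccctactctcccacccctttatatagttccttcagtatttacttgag
IFIT1, canonical start, chr10:91152180-91152379: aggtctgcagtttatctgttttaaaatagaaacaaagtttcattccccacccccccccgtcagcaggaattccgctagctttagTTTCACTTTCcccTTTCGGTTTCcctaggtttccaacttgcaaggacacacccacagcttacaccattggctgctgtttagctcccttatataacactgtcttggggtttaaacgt
ISG15, canonical start, chr1:948677-948876: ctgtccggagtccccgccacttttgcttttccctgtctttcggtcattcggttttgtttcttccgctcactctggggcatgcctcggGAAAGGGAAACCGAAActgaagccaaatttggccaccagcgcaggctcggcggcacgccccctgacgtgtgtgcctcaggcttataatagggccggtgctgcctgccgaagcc
The canonical IFIT2 window held 2 ISRE matches separated by 3 bases. A match or its absence describes these letters only and says nothing of binding in these cells. The windows of the 3 IFIT genes held 2 to 5 CpG dinucleotides and 38% to 45.5% G and C, below the medians of 16 and 65% over all windows. IRF1, IRF7 and MX1, with 18 to 22 CpG and 68% to 72% G and C, were above both medians.

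The libraries held 3489607 to 9839629 counts in H3K4me3 peaks and 1994996 to 6450028 in H3K27ac peaks. Replicate 1 of every line was the shallower H3K4me3 library, and 12 of the 14 member peaks had more CPM (a library's counts scaled to a total of 1000000) in replicate 2 of each line, against 69.4% to 71.2% of all peaks. Deviations from the line mean correlated between same-numbered H3K4me3 libraries of different lines (r 0.632 to 0.683 across peaks), and less so for H3K27ac (r 0.245 to 0.32). A fit with replicate number as a block is therefore given wherever it changes a call. All 4 mesenchymal or claudin-low marker genes had an H3K4me3 peak, MSN at 0 to 2.11 CPM and the others at 103 to 329 CPM. All 4 epithelial genes had one too, CDH1 at 2.01 to 8.03 CPM and EPCAM at 11.25 to 28.75 CPM. KRT8 and KRT18 had an identical range, 59.2 to 101 CPM, so 1 peak may have been counted for both. Of 3 luminal genes FOXA1 had a peak at 22.1 to 75.5 CPM and GATA3 at 8.03 to 40.7 CPM, and ESR1 had none. A peak was found for 1 of 5 immune genes, CD14 at 5.28 to 16.0 CPM, and for 1 of the 4 endothelial and fibroblast genes found in the annotation, COL1A1 at 14.9 to 35.5 CPM, with PTPRC, CD3E, VWF and CDH5 lacking a peak.

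Levels were compared between genes as CPM per kb of peak, ranked among 13369 H3K4me3 peaks within 2 kb of a protein-coding start. In Par, the canonical start of IRF1 stood at the 78.1 percentile, while the canonical starts of the target genes stood low, IFIT3 at 16.2, IFIT1 at 13.8, ISG15 at 17.5, MX1 at 18.3, IFIT2 at 8.97, OAS1 at 8.36 and IFI44L at 4.21. IRF7 stood at 22.3. The peak at the upstream ISG15 start stood at 76.1, and it also covers the canonical start of HES4, a neighbouring gene on the other strand, so its reads cannot be divided between both genes. The replicate ranges of IFIT3, IFIT1, ISG15 and MX1 overlapped one another, so their order was not resolved. The peak at the upstream IFIT2 start went from the 0.995 percentile in Par and 0.329 in LM2 to 17.2 in BrM2, level with IFIT3 at 16.3 in the same line.

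**Figure D1:**
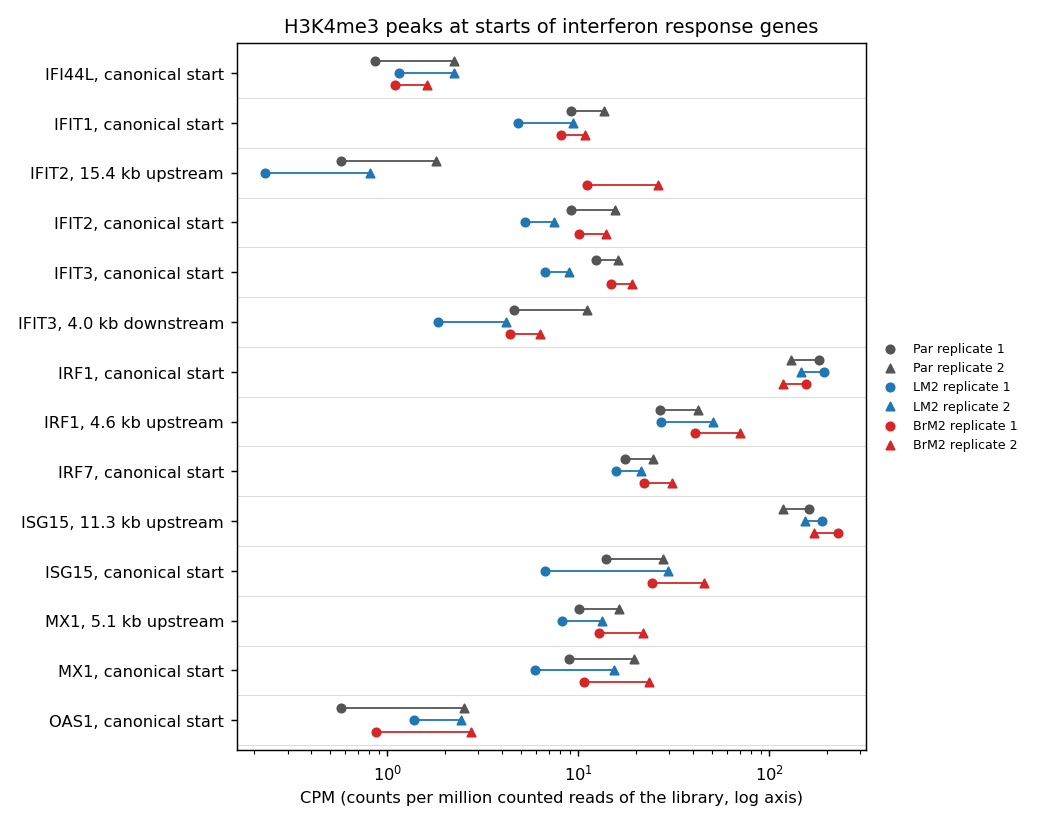
CPM of 14 H3K4me3 peaks (rows, named by gene and distance from the canonical start) on a log axis. Circles are replicate 1, triangles replicate 2, lines join both replicates, and colours give the cell line. The BrM2 libraries at the upstream IFIT2 start, at 11.1 and 26.3, stand above the Par and LM2 libraries, all at or under 1.79.

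Among the H3K4me3 peaks, the one at the upstream starts of IFIT2 differed between lines. This peak (chr10:91044586-91046400) covers the starts of 3 protein-coding IFIT2 transcripts and ends 15.4 kb upstream of the canonical start. It had 0.573 and 1.79 CPM in the Par libraries, 0.23 and 0.813 in LM2, and 11.1 and 26.3 in BrM2, from 2, 12, 1, 8, 51 and 212 counts. Both BrM2 libraries were above every Par and LM2 library, and Par and LM2 overlapped. It rose in BrM2 against Par by 3.82 ± 0.71 on the log2 scale (SE, n = 2 per line, DESeq2 Wald test, adjusted p = 1.06e-05) and against LM2 by 4.92 ± 0.77 (DESeq2 adjusted p = 5.83e-08). In LM2 against Par the log2 difference was -1.09 ± 0.87 (DESeq2 adjusted p = 1), on few counts. Without BrM2 replicate 2, the deeper of the pair, the log2 difference from Par was 3.31 and the call was lost (DESeq2 adjusted p = 0.124), whereas the difference from LM2 was called in all 12 alternative fits. The 34 H3K4me3 peaks within 2.5 Mb outside the members had a median log2 difference of -0.05 in BrM2 against Par and 0.20 against LM2.

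The H3K4me3 peak at the canonical IFIT2 start did not follow. It had 9.17 and 15.6 CPM in Par, 5.28 and 7.42 in LM2, then 10.0 and 14.0 in BrM2. The LM2 libraries lay below those of both other lines, which overlapped. The log2 difference was -0.93 ± 0.48 in LM2 against Par (DESeq2 adjusted p = 0.589) and -0.10 ± 0.46 in BrM2 against Par (DESeq2 adjusted p = 0.996), with a 95% interval from -1.01 to 0.80 for the latter.

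LM2 was also lowest at IFIT3. At its canonical start the H3K4me3 peak had 12.3 and 16.2 CPM for Par, 6.66 and 8.94 for LM2, and 14.8 and 19.2 for BrM2. LM2 was below both other lines without overlap, and Par and BrM2 overlapped. BrM2 was 1.03 ± 0.43 above LM2 on the log2 scale, which was not called without the block (DESeq2 adjusted p = 0.24) and was called with it (1.04, adjusted p = 0.0125). A further IFIT3 peak, 4.04 kb downstream, had 4.59 and 11.2 CPM in Par, 1.84 and 4.17 in LM2, then 4.37 and 6.32 in BrM2, and no contrast was called in either fit. At IFIT1, Par had 9.17 and 13.7 CPM, LM2 4.82 and 9.35, and BrM2 8.08 and 10.8, the lines overlapped, and no contrast was called.

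Of the remaining target genes, ISG15 alone had an H3K4me3 call in a DESeq2 fit, and then with the replicate block or, for BrM2 against LM2, without LM2 replicate 2. At its canonical start, the H3K4me3 peak had 14.0 and 27.7 CPM for Par, 6.66 and 29.4 for LM2, and 24.5 and 45.5 for BrM2. The lines overlapped, and each replicate 2 was above its replicate 1. BrM2 was 0.91 ± 0.51 above LM2 on the log2 scale (DESeq2 adjusted p = 0.562), or 1.01 with the replicate block (adjusted p = 0.00396). The upstream ISG15 peak shared with HES4 had 161 and 119 CPM in Par, 190 and 153 in LM2, then 228 and 171 in BrM2. With the block it was called higher than Par in LM2 (0.33, adjusted p = 0.0129) and in BrM2 (0.45, adjusted p = 0.000208), and neither was called without it (adjusted p = 1 and 0.897).

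MX1, which has H3K4me3 peaks at its canonical start and 5.11 kb upstream, had no call in either DESeq2 fit. The canonical peak had 8.88 and 19.7 CPM for Par, 5.97 and 15.5 for LM2, and 10.7 and 23.6 for BrM2, and the upstream one 10.0 and 16.4, 8.26 and 13.3, and 12.9 and 21.8, in the same order of lines. All lines overlapped at both. OAS1 and IFI44L were near the limit of detection, with 0.573 to 2.73 and 0.86 to 2.24 CPM over the 6 libraries, and no contrast was called, with standard errors that leave room for sizeable differences at this depth.

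Both transcription factor genes had H3K4me3 peaks, and only those of IRF1 were called with the block. At the canonical IRF1 start the H3K4me3 peak had 183 and 130 CPM in Par, 193 and 147 in LM2, then 157 and 118 in BrM2, with overlap between all lines. BrM2 was 0.41 ± 0.40 below LM2 on the log2 scale (DESeq2 adjusted p = 0.879), a difference called with the block (-0.40, adjusted p = 0.0013). The peak 4.62 kb upstream of it ran the other way, with 26.7 and 42.3 CPM for Par, 27.1 and 50.8 for LM2, and 40.8 and 70.5 for BrM2. There BrM2 was 0.62 ± 0.38 above Par (DESeq2 adjusted p = 0.655), called with the block (0.63, adjusted p = 0.00991). IRF7 had 17.5 and 24.6 CPM in Par, 15.8 and 21.3 in LM2, then 22.04 and 31.0 in BrM2, and no contrast was called in either DESeq2 fit.

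Counted together, 0 of the 8 H3K4me3 peaks were called in LM2 against Par, 1 in BrM2 against Par and 1 in BrM2 against LM2, the upstream IFIT2 peak in both. Over all H3K4me3 peaks 2.51%, 3.61% and 3.18% were called in these contrasts by the DESeq2 Wald test. In LM2 against Par 0 of the 8 had an unadjusted p under 0.05, and edgeR without a block also called 0. The replicate block raised the counts to 1, 2 and 2, and the shares over all peaks to 14.4%, 17.7% and 22%. With transcript starts, the same 0, 1 and 1 of 14 peaks were called. The median log2 difference of the 8 peaks was -0.21, 0.23 and 0.37, beside 0.01, -0.02 and -0.04 over all peaks tested. Both BrM2 libraries were above both LM2 libraries at 5 of the 14 peaks (19.5% of all H3K4me3 peaks), and both LM2 libraries were below both Par libraries at 3 of 14 (12% of all), all of these 3 at IFIT2 and IFIT3.

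**Figure D2:**
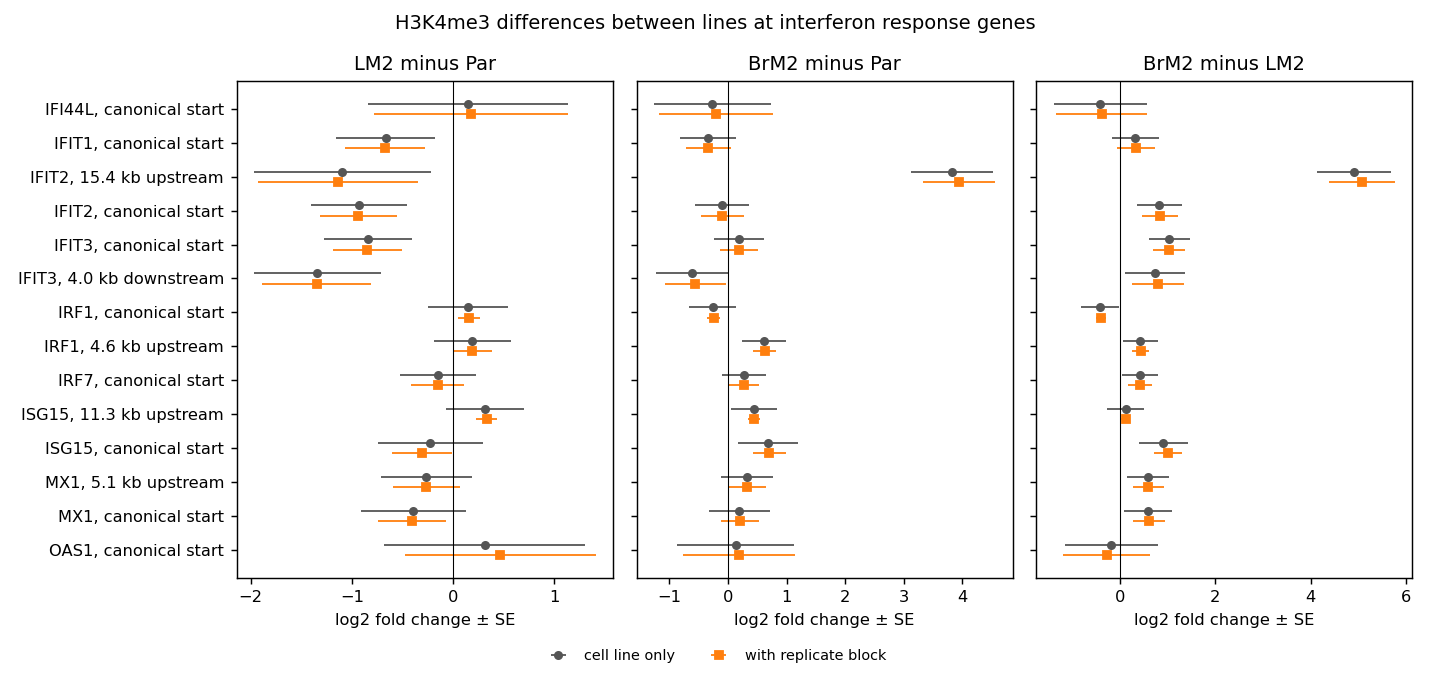
Log2 differences between lines (points) with standard errors (bars) for 14 H3K4me3 peaks, fitted with cell line only (grey) and with the replicate block (orange). The upstream IFIT2 peak stands at 3.82 and 4.92 in the BrM2 contrasts, and the block left the estimates near their places and shortened most bars.

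H3K27ac gave calls in the same part of chromosome 10. Of the 29 H3K27ac peaks, 0 were called in LM2 against Par, 0 in BrM2 against Par and 3 in BrM2 against LM2, all higher in BrM2. Over all H3K27ac peaks 3.63%, 5.29% and 2.94% were called by the DESeq2 Wald test. At an unadjusted p under 0.05 the 29 peaks gave 4, 5 and 7, and edgeR without a block called 0, 2 and 4. With the replicate block 1, 2 and 4 of the 29 were called, and 5.44%, 8.13% and 6.17% of all peaks. The unblocked DESeq2 fit left 25, 25 and 24 of the 29 with an adjusted p, and the others were too weak for one. The median log2 difference of the members with an adjusted p was -0.52, 0.29 and 0.65, or -0.52, 0.07 and 0.59 with transcript starts, beside -0.04, -0.01 and 0.01 over all peaks tested.

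The broadest of the 3 called peaks (chr10:91034705-91048410, 13706 bp) contains the upstream IFIT2 start and the H3K4me3 peak that rose there. This H3K27ac peak also overlaps an exon of LIPA, a gene on the other strand. It had 121 and 115 CPM for Par, 75.0 and 75.3 for LM2, and 177 and 165 for BrM2. The 3 lines did not overlap, with LM2 lowest and BrM2 highest. BrM2 was 1.25 ± 0.25 above LM2 on the log2 scale (DESeq2 adjusted p = 0.000136). LM2 was 0.71 ± 0.25 below Par (DESeq2 adjusted p = 0.09), which was called with the block (-0.71, adjusted p = 0.00764), and BrM2 was 0.54 ± 0.25 above Par (adjusted p = 0.232, and 0.0535 with the block). The 154 H3K27ac peaks within 2.5 Mb outside the members had median log2 differences of -0.24, -0.03 and 0.16 in the 3 contrasts.

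The second (chr10:91020355-91024992) had 14.1 and 19.6 CPM in Par, 7.44 and 9.84 in LM2, then 35.2 and 35.1 in BrM2, again with 3 lines that did not overlap. BrM2 was 2.11 ± 0.39 above LM2 on the log2 scale (DESeq2 adjusted p = 2.05e-05) and 1.06 ± 0.37 above Par (adjusted p = 0.0691, and 0.0206 with the block). It lies in an intron of LIPA, the gene of lysosomal acid lipase, 8.82 kb upstream of the canonical LIPA start and 36.8 kb upstream of that of IFIT2, and it went to IFIT2 because the LIPA gene record begins beyond IFIT1. With transcript starts it was no member. The third (chr10:91109859-91113627), 22.1 kb downstream of the canonical IFIT3 start and in introns of IFIT3 and LIPA, had 58.6 and 57.2 CPM for Par, 44.8 and 38.6 for LM2, and 78.5 and 81.7 for BrM2. It too had no overlap between lines, and BrM2 was 1.01 ± 0.28 above LM2 (DESeq2 adjusted p = 0.0163). This call was lost in 4 of 6 fits that left out 1 library, and the other 2 calls in 2 of 6 each, without LM2 replicate 1 and without BrM2 replicate 1, at log2 differences of 0.92 to 1.09, 1.88 to 2.32 and 1.21 to 1.30.

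**Figure D3:**
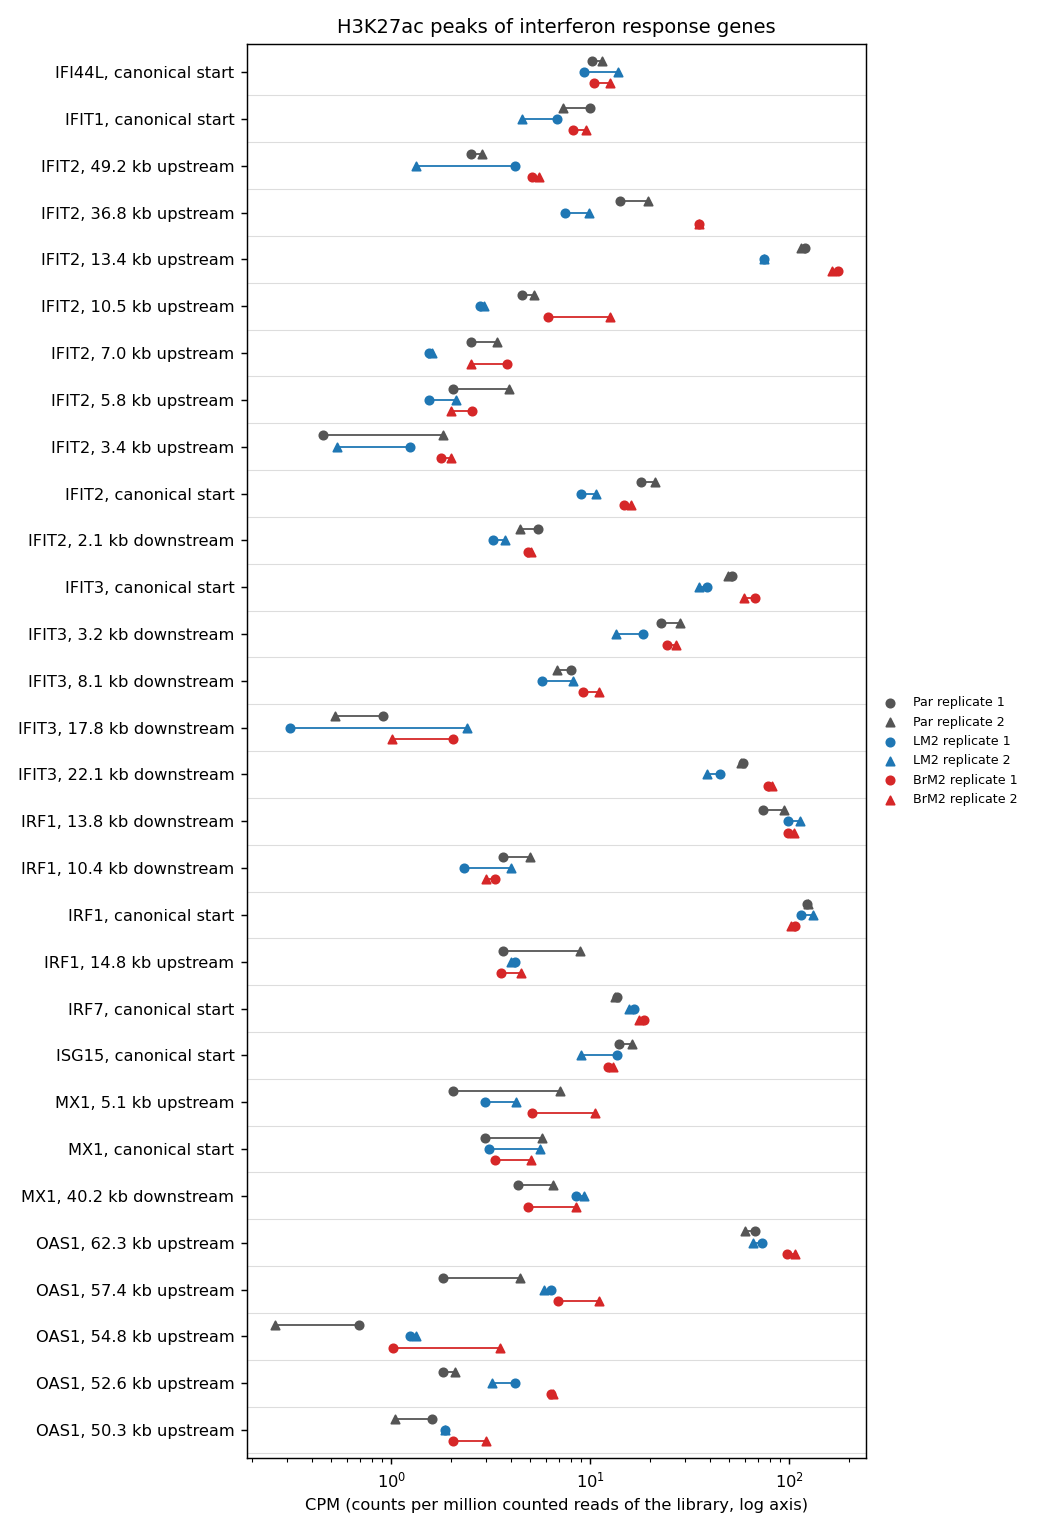
CPM of 30 H3K27ac peaks (rows, named by gene and distance from the canonical start), on a log axis, with 1 symbol per library as in the plot of H3K4me3. At the 3 called peaks, 36.8 and 13.4 kb upstream of IFIT2 and 22.1 kb downstream of IFIT3, LM2 is lowest and BrM2 highest.

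None of the H3K27ac peaks at the canonical IFIT starts was called in the DESeq2 fit without the block. IFIT3 had 51.8 and 49.1 CPM in Par, 38.6 and 35.1 in LM2, then 67.0 and 59.7 in BrM2, without overlap, and BrM2 was 0.85 ± 0.29 above LM2 on the log2 scale (DESeq2 adjusted p = 0.0783, and 0.0125 with the block). The peak at the canonical IFIT2 start had 18.0 and 21.1 CPM for Par, 8.99 and 10.6 for LM2, and 14.8 and 16.0 for BrM2, so that here Par was highest. LM2 was 1.07 ± 0.40 below Par, the lowest estimate of the H3K27ac peaks assigned to the IFIT genes (DESeq2 adjusted p = 0.122, and 0.069 with the block). IFIT1 had 10.0 and 7.31, 6.82 and 4.52, and 8.16 and 9.52 CPM in Par, LM2 and BrM2, and no contrast was called.

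Over the IFIT1, IFIT2 and IFIT3 peaks the direction was mostly shared. Of 15 H3K27ac peaks assigned to these 3 genes, 15 had a positive log2 difference in BrM2 against LM2, with a median of 0.85 and a range of 0.34 to 2.11, and both BrM2 libraries were above both LM2 libraries at 13 (20% of all H3K27ac peaks). With transcript starts 11 of 11 were positive, with a median of 0.74 and a range of 0.42 to 1.74. The peak at 2.11, in a LIPA intron, was then no member. In LM2 against Par 13 of 15 were negative, with a median of -0.66, and both LM2 libraries were below both Par libraries at 10 (18.3% of all). With transcript starts 11 of 11 were negative, with a median of -0.71. In BrM2 against Par 12 of 15 were positive, with a median of 0.44, and with transcript starts 8 of 11, with a median of 0.14. These peaks lie within 142 kb of each other and LM2 and BrM2 were each compared with the same Par libraries, so neither the peaks nor the contrasts are independent. The median of the surrounding H3K27ac peaks within 2.5 Mb, outside the members, was also negative in LM2 against Par, at -0.24 to -0.25. In BrM2 against LM2 it was positive, at 0.16 to 0.18, with 93 to 97 of 153 to 156 such peaks higher. The part of these in the result was not tested. DNA copy number of the region was not measured here.

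**Figure D4:**
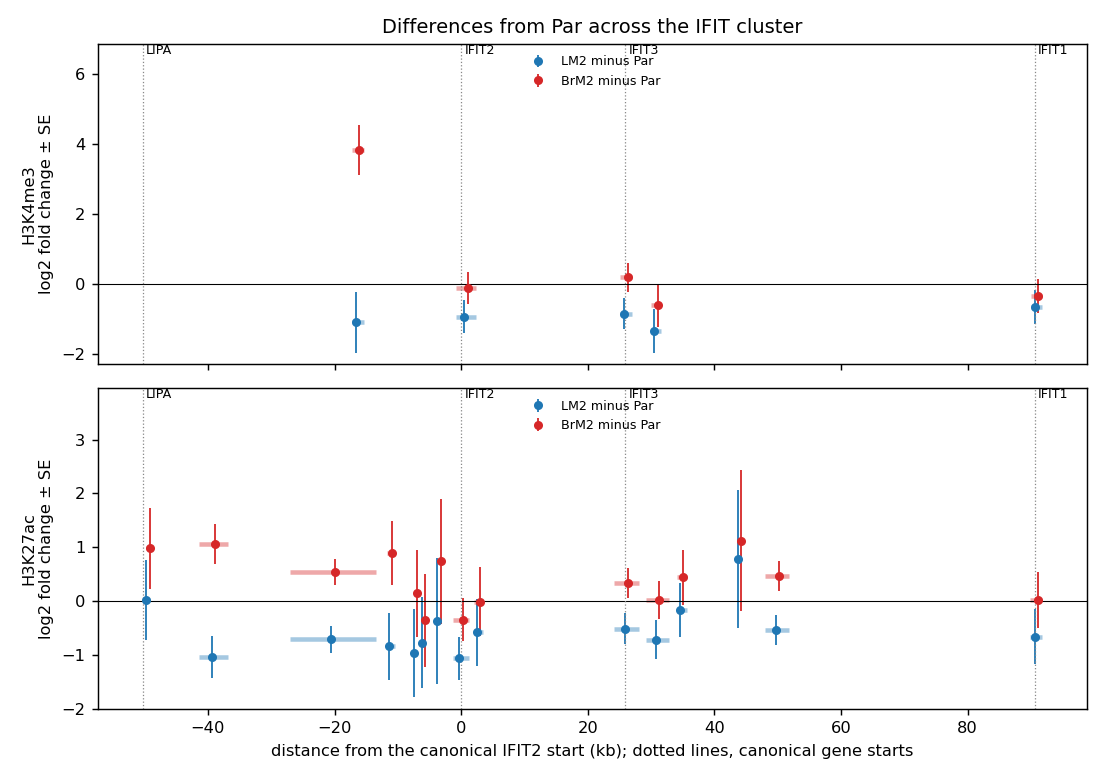
Log2 differences from Par (points, with standard errors as bars) of the H3K4me3 (top) and H3K27ac (bottom) peaks assigned to IFIT2, IFIT3 and IFIT1, by distance from the canonical IFIT2 start in kb. Pale horizontal bars give the width of each peak, and dotted lines the canonical gene starts. The H3K4me3 point at 3.82 lies left of the canonical IFIT2 start, over the broad H3K27ac peak at 0.54, and most LM2 points lie below 0.

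H3K27ac at the other members gave no call in the DESeq2 fit without the block. ISG15 (canonical start, by transcript starts) had 13.9 and 16.2 CPM in Par, 13.6 and 9.04 in LM2, then 12.2 and 13.0 in BrM2, IRF7 13.7 and 13.3, 16.6 and 15.7, and 18.6 and 17.5, and IFI44L 10.3 and 11.5, 9.30 and 13.8, and 10.5 and 12.5. Per kb of peak, IFI44L stood at the 24.3 percentile of promoter H3K27ac peaks in Par, between IRF7 at 19.8 and ISG15 at 31.2, against 4.21 for its H3K4me3. The upstream MX1 peak had 2.05 and 7.05 CPM for Par, 2.95 and 4.26 for LM2, and 5.10 and 10.5 for BrM2. The peak over the canonical MX1 start had 2.965 and 5.742, 3.101 and 5.585, and 3.314 and 5.013 CPM in the same order. All lines overlapped there, and the log2 difference of BrM2 was -0.09 from Par and -0.01 from LM2. The broad IRF1 peak over its canonical start, singled out after its values were seen, had 124 and 124, 115 and 132, and 107 and 102 CPM, and the log2 difference of BrM2 from Par was -0.24 ± 0.26. None of these contrasts passed the threshold.

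All 5 H3K27ac peaks assigned to OAS1 lay 50.3 to 62.3 kb upstream of its canonical start in introns of RPH3A, a gene of vesicle release, and OAS1 had no H3K27ac peak at its own start. The broadest (chr12:113274681-113282475) had 67.3 and 60.3 CPM in Par, 73.3 and 66.2 in LM2, then 97.1 and 107 in BrM2. BrM2 was above both other lines without overlap, by 0.68 ± 0.27 against Par on the log2 scale (DESeq2 adjusted p = 0.13, and 0.0272 with the block). The other 4 peaks had 0.261 to 11.03 CPM. The log2 differences of the 5 peaks in BrM2 against Par were 0.68 to 2.17, with a median of 1.51. Of these, edgeR without the block called 1 (chr12:113291352-113292171), at 8 counts in each Par library, 27 and 12 in LM2, and 25 and 13 in BrM2, where the DESeq2 estimate was 1.72 ± 0.70 (adjusted p = 0.152). The median log2 difference of the 119 H3K27ac peaks within 2.5 Mb outside the members was 0.38 in BrM2 against Par.

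The wider pathway was described with 98 further genes in 8 lists, receptors, JAK-STAT transducers, other IRFs, nucleic acid sensors, interferon ligands, antiviral effectors, other interferon-stimulated genes and brakes of the signal. They had 73 H3K4me3 peaks. Of these, 0 were called in LM2 against Par, 0 in BrM2 against Par and 1 in BrM2 against LM2. The shares of all H3K4me3 peaks called were 2.51%, 3.61% and 3.18%. At an unadjusted p under 0.05 in the same DESeq2 test the 73 peaks gave 4, 1 and 3, and edgeR without a block called 0 in each. Their median log2 differences were -0.08, -0.06 and -0.07. The called peak was that of BST2, which encodes tetherin, a protein that holds virus particles at the cell surface. It also overlaps an exon of MVB12A. It had 12.3 and 21.5 CPM for Par, 3.67 and 7.83 for LM2, and 13.3 and 23.3 for BrM2. LM2 was below both other lines without overlap, as at IFIT3, and BrM2 was 1.56 ± 0.48 above LM2 on the log2 scale (DESeq2 adjusted p = 0.0361), a call lost in each of the 6 fits that left out 1 library. The difference of LM2 from Par, -1.51 ± 0.48, passed with the block (adjusted p = 0.0617 without and 0.000292 with it). The H3K27ac peak over the same start was called in no contrast in either DESeq2 fit. There BrM2 was 0.66 ± 0.40 above LM2 (DESeq2 adjusted p = 0.506, and 0.297 with the block).

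The upstream parts of the pathway gave no call in the unblocked H3K4me3 fit. With 2.51% to 3.61% of all peaks called, no call among so few peaks is near that share. None of the 10 ligand genes had an H3K4me3 peak, 5 of 6 receptor genes, all 7 JAK-STAT genes and 11 of 12 sensor genes had one. With the block 6, 7 and 15 of the 73 peaks were called, where 14.4%, 17.7% and 22% of all H3K4me3 peaks were. Of the 6, 2 were higher in LM2 and 4 lower, and of the 7, 1 was higher in BrM2 and 6 lower. In BrM2 against LM2 these were 7 higher, among them IRF9, a DNA-binding subunit of the complex at the ISRE (1.46, DESeq2 adjusted p = 0.003), and 8 lower, among them the kinase TBK1 (-0.52, DESeq2 adjusted p = 0.000526) and the feedback inhibitor SOCS1 (-0.39, DESeq2 adjusted p = 0.00249), all 3 chosen after their values were seen.

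Of 212 H3K27ac peaks of these genes, 2 were called in LM2 against Par, both lower, 4 in BrM2 against Par, 2 in each direction, and 2 in BrM2 against LM2, 1 in each direction, beside the 3.63%, 5.29% and 2.94% of all H3K27ac peaks. The medians were -0.07, -0.10 and -0.01. A peak 2.13 kb from the SP110 start, in an exon of the neighbouring SP140, both genes of nuclear body proteins, had 35.6 and 18.0 CPM in Par, 33.5 and 30.1 in LM2, then 93.3 and 67.2 in BrM2. BrM2 was above both other lines without overlap, by 1.59 ± 0.36 against Par (DESeq2 adjusted p = 0.000665) and 1.41 ± 0.35 against LM2 (adjusted p = 0.00539). With transcript starts it was not assigned to the lists. The H3K27ac peak at the PARP12 start fell in LM2 against Par by 1.04 ± 0.28 on the log2 scale (DESeq2 adjusted p = 0.00905), from 95.1 and 93.4 to 45.9 and 50 CPM, and in BrM2 it had 50.2 and 63.7 CPM (-0.73 ± 0.28, adjusted p = 0.114, and 0.0204 with the block). A peak 16.2 kb from the start of GBP1, a guanylate-binding GTPase, fell in LM2 against Par by 1.18 ± 0.38 (DESeq2 adjusted p = 0.0492), and a peak in ZC3HAV1, the gene of the zinc finger antiviral protein, fell in BrM2 against Par by 0.98 ± 0.31 (DESeq2 adjusted p = 0.0352).

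**Figure D5:**
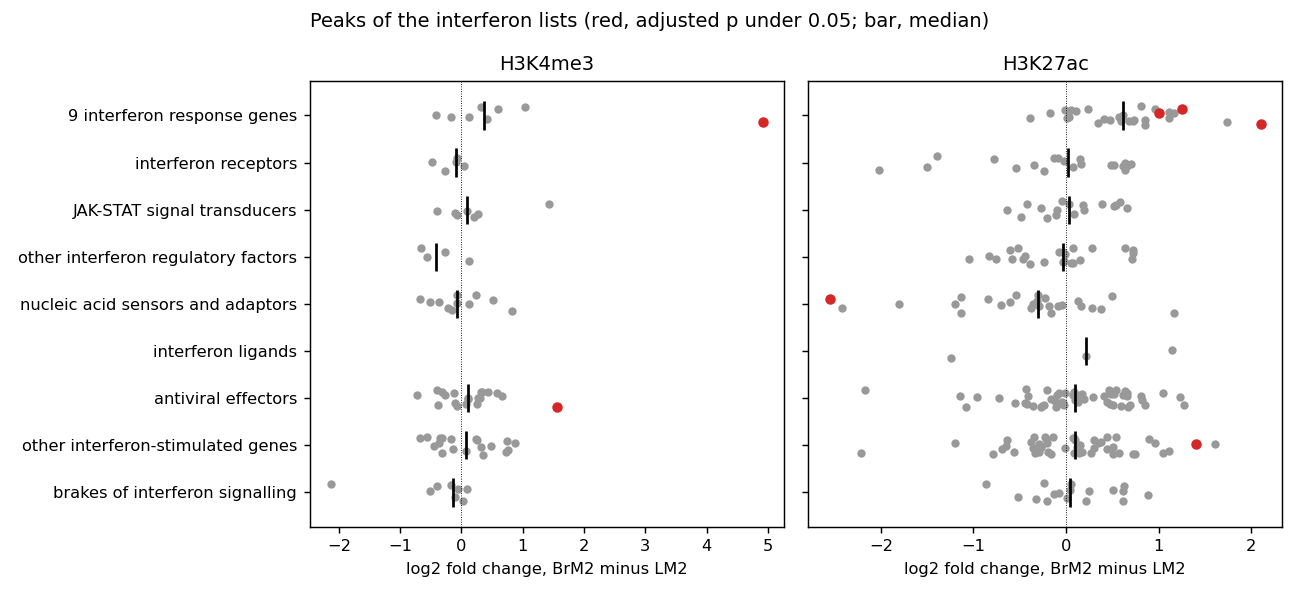
Log2 differences of BrM2 from LM2 for H3K4me3 (left) and H3K27ac (right) peaks of the 9 genes and of the 8 further lists, by gene-record start. Each point is a peak, red where the adjusted p passed, and the black bar is the median of a list. The H3K4me3 medians lie within 0.42 of 0, and the upstream IFIT2 peak stands at 4.92.

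The genes whose H3K4me3 pattern was most like that of the upstream IFIT2 peak were sought among 10984 peaks within 2 kb of a gene start with a mean of at least 1 CPM. By Pearson correlation of log2(CPM + 1) over the 6 libraries they were SLC30A6, a zinc transporter gene (r 0.998), ZNF300, a zinc finger gene (r 0.995), and NAA25, a subunit of an acetyltransferase (r 0.994), and 12 peaks exceeded 0.99. The correlation is a description of 6 libraries that share their depth differences. ZNF300 came nearest in size, with 0.86 and 1.49 CPM for Par, 0 and 0.711 for LM2, and 13.8 and 28.1 for BrM2. SLC30A6, with 43.4 to 48.7 CPM in Par and LM2 and 63.1 and 74.5 in BrM2, and NAA25, with 109 to 125 and 149 and 161, differed by far less.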

How the data were processed

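Samples were grouped by cell line and mark as their titles give them. Each of the 12 count columns belonged to 1 sample, with 0 columns unmatched, and the 3 input samples were not used here.

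The authors aligned reads to hg19 with Bowtie2 2.3.4.3, called broad consensus peaks with MACS2 2.1.2 on merged reads, and counted reads extended by 150 bases with featureCounts 1.6.0. The deposited tables hold these raw counts per peak. A region marked in 1 line can be missed by calling on merged reads.

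Peaks were assigned with GENCODE release 44 lifted to GRCh37, using gene-record starts, with all protein-coding transcript starts as an alternative. The 6 libraries of a mark were fitted together in R 4.3.3 with DESeq2 1.42.0, as in the study, using the Wald test, cell line as the only term, 3 residual degrees of freedom and Benjamini-Hochberg adjustment over all peaks of the mark, and a peak was called at an adjusted p under 0.05. Same-numbered libraries deviated together, so a fit with the replicate block is given where it changes a call. Alternatives were edgeR 4.0.16, other size factors, a minimum of 10 counts in 2 libraries, and leaving out each library. The DESeq2 and edgeR fits were also run on simulated counts with known changes, without a replicate effect. That run does not check calls where same-numbered libraries deviate together.

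All 14 H3K4me3 peaks are named. Of the H3K27ac peaks, those within 2 kb of a gene-record start, over a canonical start or called without the block are named, and some of those of OAS1. Pathway peaks named are the 3 largest called changes per mark and contrast whose normalized counts averaged 50 or more. The H3K27ac peak at the BST2 start is given beside its H3K4me3 peak. The members and lists were chosen with earlier results of these data known. Sequences are the hg19 reference.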

Additional observations from a re-analysis of the deposited data

Results flagged for a closer look

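At 4 of the member peaks the difference of BrM2 from Par was not the same as that of LM2 from Par, by the DESeq2 Wald test of BrM2 against LM2 itself. All 4 lie on chromosome 10 and were assigned to IFIT2 or IFIT3. At the H3K4me3 peak of the upstream IFIT2 start the log2 difference was 4.92 (adjusted p = 5.83e-08), with both BrM2 libraries above all others. At the H3K27ac peak that contains this start the difference was 1.25 (adjusted p = 0.000136). At the H3K27ac peak in a LIPA intron upstream of IFIT2, no member with transcript starts, it was 2.11 (adjusted p = 2.05e-05). At the H3K27ac peak downstream of the IFIT3 start it was 1.01 (adjusted p = 0.0163). Both BrM2 libraries were above both LM2 libraries at each of the 4 peaks, which were picked by this contrast. The same held at 19.5% of all H3K4me3 peaks and 20% of all H3K27ac peaks.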

How the results depend on the processing

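The call of the upstream IFIT2 H3K4me3 peak in BrM2 against LM2 was kept in all 12 alternative fits, and that against Par in 11. In the order LM2 against Par, BrM2 against Par and BrM2 against LM2, DESeq2 with the replicate block called 1, 2 and 2 H3K4me3 member peaks, 6, 7 and 15 H3K4me3 pathway peaks, 1, 2 and 4 H3K27ac member peaks and 4, 5 and 5 H3K27ac pathway peaks. Over all peaks that fit called 14.4%, 17.7% and 22% for H3K4me3 and 5.44%, 8.13% and 6.17% for H3K27ac. edgeR with the block called 2, 2 and 3, then 16, 22 and 29, then 4, 5 and 6, and then 30, 29 and 18. The shares of all peaks that edgeR called are not given here, so its counts cannot be read against them. edgeR without the block called 0 H3K4me3 pathway peaks in BrM2 against LM2, 2 H3K27ac member peaks in BrM2 against Par and 6 H3K27ac pathway peaks in LM2 against Par. The latter count was 1 with TMM factors and 1 with the low-count filter, and in BrM2 against LM2 it was 1 with size factors from mapped reads. With transcript starts, 1 H3K27ac member peak was called in BrM2 against LM2. Leaving out each library gave 0 to 1 H3K4me3 member peaks in BrM2 against Par and 0 to 0 H3K4me3 pathway peaks in BrM2 against LM2, 0 to 3 H3K27ac member peaks in BrM2 against LM2, and 0 to 1, 0 to 2 and 0 to 1 H3K27ac pathway peaks. The cause was not tested beyond the fewer samples that these fits hold.

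Where a value changed sign, neither it nor its counterpart from all libraries without the block was called. Across fits without 1 library, H3K4me3 log2 differences ran at IFI44L from -0.24 to 0.83 (LM2 against Par) and -0.66 to 0.42 (BrM2 against Par), at the upstream ISG15 peak from -0.056 to 0.74 (LM2 against Par) and -0.24 to 0.48 (BrM2 against LM2), and at OAS1 from -0.25 to 1.59, -0.72 to 1.40 and -1.05 to 0.32. H3K27ac differences ran at IFI44L from -0.31 to 0.31, -0.051 to 0.22 and -0.24 to 0.37, at IFIT1 from -0.19 to 0.27 (BrM2 against Par) and at MX1 from -1.05 to 0.73 (LM2 against Par). With mapped-read factors IFI44L gave -0.12 and -0.10 against Par and IFIT1 -0.15, IFI44L gave -0.0017 with the DESeq2 block, and IFIT1 -0.0009 and -0.0199 with edgeR without and with the block. Of 576 refits of single named peaks, 521 kept their direction and side of the threshold, 18 gained a call, 10 lost one and 27 changed sign. The depth of 1 to 12 counts at the upstream IFIT2 peak in Par and LM2 limits the precision of its fold.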
